A study of Mus musculus with 6 samples.

Results

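The genes of insulin and IGF-1 signalling followed here in mouse gastrocnemius, a mixed but mainly fast-twitch muscle of the calf, were the ligand gene Igf1, the receptor genes Igf1r and Insr, the adaptor genes Irs1 and Irs2, the kinase genes Akt1 and Akt2, and the transcription factor genes Foxo1, Foxo3 and Foxo4. The set was chosen by gene symbol and each symbol matched 1 row, so that 10 of the 57010 genes of the table were taken. All 10 reached 1 TPM or more in 3 or more libraries and were among the 11375 genes tested.

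The radiotherapy group (n = 3) held muscle from NSG mice, an immunodeficient strain without mature lymphocytes, whose flank tumour received a single local dose of 10 Gy. Contralateral muscle was collected 3 days after irradiation. The control group (n = 3) held the same muscle from mice with tumours that were not irradiated. Every tumour in both groups was a xenograft of MDA-MB-231 (a line from a human triple-negative breast cancer) with knockdown of Rab27a, a small GTPase of vesicle secretion. No sample here came from a mouse without a tumour or with a tumour lacking the knockdown, and whether each sample is a different mouse is not stated in the labels. The p-values therefore measured the spread between these samples, which may be technical. No age or sex is stated for the mice.

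IGF-1 and insulin bind related receptor tyrosine kinases, which phosphorylate the IRS adaptors. These recruit phosphoinositide 3-kinase (PI3K), and its lipid product activates Akt. Active Akt favours glucose uptake and protein synthesis in muscle and phosphorylates the FoxO factors, which holds them outside the nucleus; unphosphorylated FoxO turns on genes of muscle atrophy such as Trim63 and Fbxo32. Most of this control is exerted on proteins, and the RNA measured here shows only how much transcript of each component was present.

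Igf1 was the only member whose 3 radiotherapy values all lay above its 3 control values, at 2.91 times the control mean. That control mean was low, at 1.60 TPM with control 3 at 0.58 TPM, and the precision of such low values is unknown. The other 9 genes overlapped between the groups; over all genes tested, 9.24% had groups that did not overlap in either direction. No member passed limma at an adjusted p of 0.05, and neither did any other gene, so that 0% of the genes tested were called. At an unadjusted p under 0.05, 1 of the 10 members was found (Igf1, higher), against 3.82% of all genes tested in either direction and 0.967% in the upward direction. The members had a median log2 fold change of -0.29, beside -0.11 for all genes tested, and 9 of the 10 were negative, beside 67.9% of all genes. Single libraries moved the members' median: without control 3 it was -0.12, beside -0.11 for all genes, and without radiotherapy 3 it was -0.59, beside -0.25. All fold changes are radiotherapy over control on the log2(TPM + 1) scale, which understates changes of low genes, where TPM is a length-corrected share of all transcripts.

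TPM sums to 1000000 in each library, so depth was unknown. All 6 muscle fibre markers were abundant, summing to 48335 to 84932 TPM in radiotherapy libraries and 102021 to 107896 TPM in controls. Transcripts of the mitochondrial genome took 15.1 to 22.5% of TPM in radiotherapy libraries and 8.93 to 13.7% in controls, with the highest share in radiotherapy 2, and a larger share for some transcripts lowers all others. Median-of-ratios scaling, which estimates a common factor per library from the tested genes detected in every library, moved the median log2 fold change of all genes from -0.11 to -0.0014. That scaling centres the median by construction, and the cause of the shift was not tested. Red blood cell markers (5 genes) summed to 930 to 1618 TPM in radiotherapy libraries and 3352 to 7203 TPM in controls. Endothelial markers (6 genes) summed to 83.2 to 125 TPM after radiotherapy and 81.2 to 111 TPM in controls, and Schwann cell markers (4 genes) to 21.1 to 438 TPM after radiotherapy and 20.3 to 78.7 TPM in controls. In whole muscle, fewer cells of a type and less RNA per cell cannot be told apart.

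**Figure D1:**
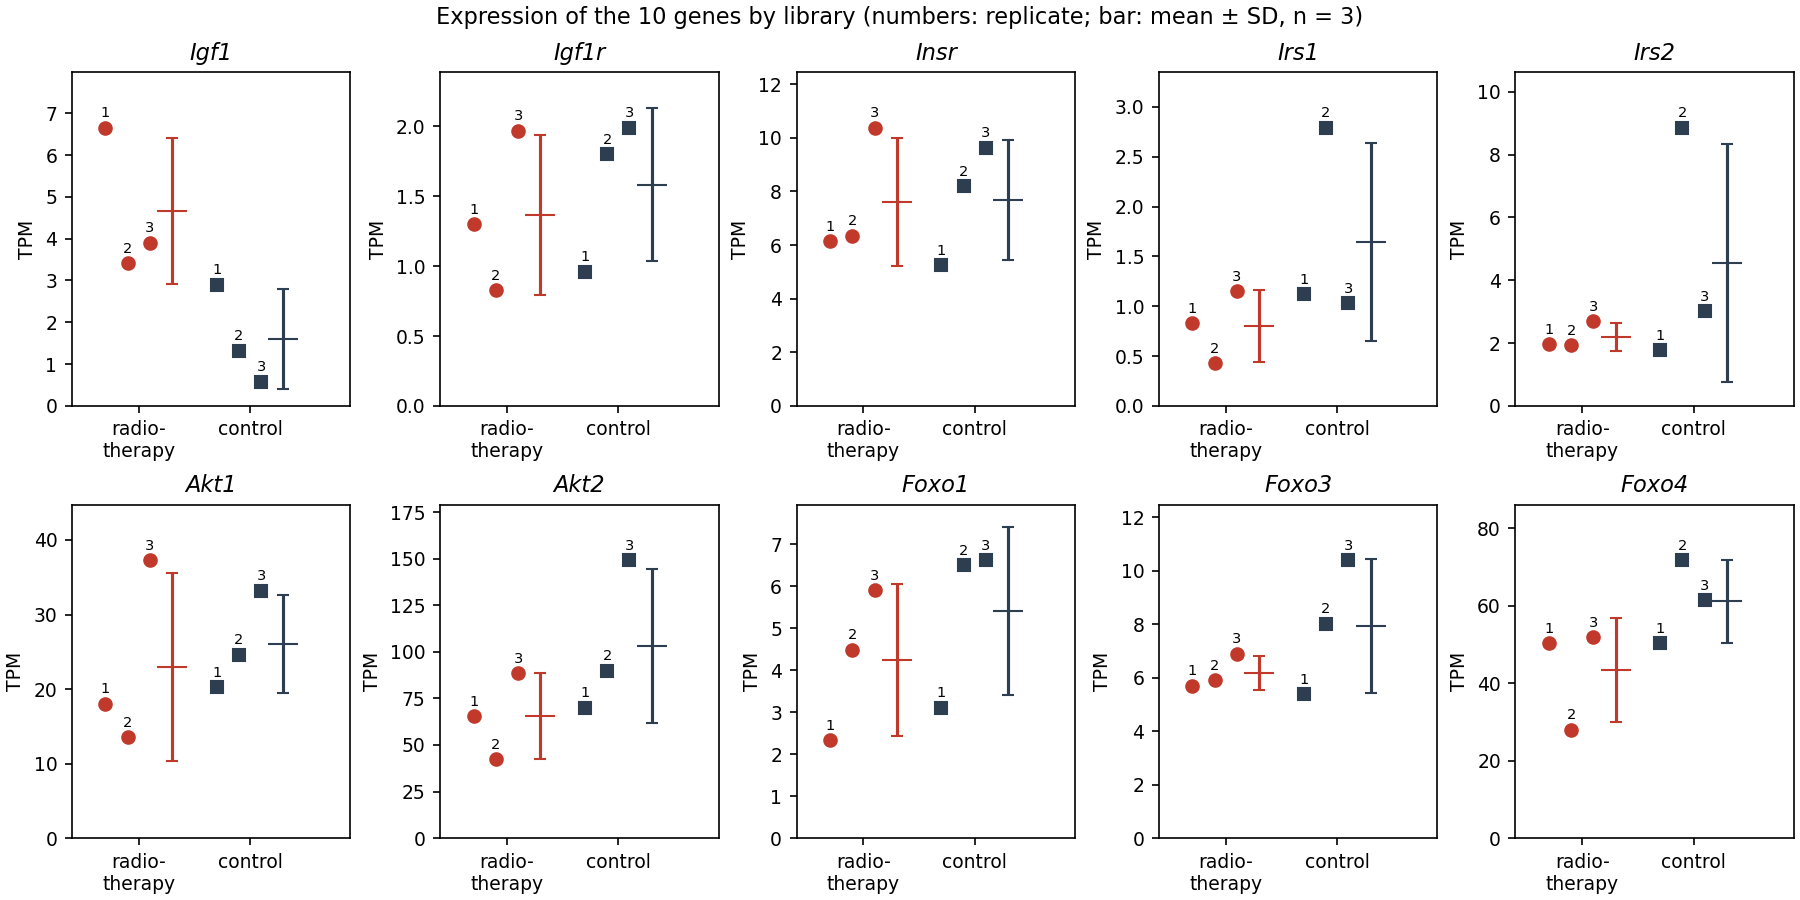
TPM (vertical axes, each from 0) of the 10 genes in the 3 radiotherapy libraries (red circles) and 3 control libraries (dark squares), numbered by replicate; the bar beside each group is the mean ± SD. Igf1 is the only panel without overlap, from 3.41 to 6.65 TPM after radiotherapy and from 0.58 to 2.90 TPM in controls.

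Across the 6 libraries, Akt2, Foxo4 and Akt1 stood above the receptor, ligand and adaptor genes, while Foxo1 and Foxo3 lay near Insr. The median levels were 79.2 TPM for Akt2, 51.1 for Foxo4, 22.4 for Akt1, 7.27 for Insr, 6.40 for Foxo3, 5.20 for Foxo1, 3.16 for Igf1, 2.33 for Irs2, 1.55 for Igf1r and 1.08 for Irs1, all length-corrected. Akt2 exceeded Foxo4, Foxo4 exceeded Akt1 and Akt1 exceeded Insr in 6 of 6 libraries, and Foxo3 exceeded Foxo1 and Irs2 exceeded Igf1r in 6 of 6. Insr and Foxo3 kept their order in 4 of 6 libraries, as did Igf1 and Irs2, and Igf1r and Irs1, so these neighbours did not differ beyond their spread. Foxo1 exceeded Igf1 in 5 of 6 libraries, the exception being radiotherapy 1.

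Igf1 encodes the growth factor that liver releases into blood and that muscle and its connective tissue also make locally. It was at 6.65, 3.41 and 3.90 TPM in radiotherapy 1, 2 and 3, against 2.90, 1.32 and 0.58 TPM in controls 1, 2 and 3. The groups did not overlap, with radiotherapy 1 highest and control 3 lowest; 1.7% of all genes tested had all radiotherapy values above all control values. The mean was 4.65 ± 1.75 TPM after radiotherapy and 1.60 ± 1.19 TPM in controls (SD, n = 3 each). The log2 fold change of Igf1 was 1.18 (SE 0.36, 95% interval 0.37 to 1.98), with a limma p of 0.00917 and an adjusted p of 0.977. By p it stood at rank 56 of 11375 genes. Leaving out each library in turn gave Igf1 a value from 0.87, without control 3, to 1.52, without control 1 (limma adjusted p = 0.373 without control 1), and the groups also did not overlap after median-of-ratios scaling.

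Markers of other cell types, some of which also make Igf1, differed in where they were high. Macrophage markers (7 genes) summed to 13.7 to 56.9 TPM after radiotherapy and 11.7 to 121 TPM in controls. Markers of fibro-adipogenic progenitors (7 genes) summed to 303 to 391 TPM after radiotherapy and 239 to 729 TPM in controls. For both lists the highest sum was in control 1. Its Igf1 value lay below that of every radiotherapy library and was the highest of the controls. Adipocyte markers (5 genes) summed to 573 to 2242 TPM after radiotherapy and 263 to 846 TPM in controls. The highest sum was in radiotherapy 1 and the lowest in control 3, the libraries with the most and the least Igf1. Cfd alone held 1412 TPM in radiotherapy 1. Radiotherapy 2, at 573 TPM, lay below controls 1 and 2, at 796 and 846 TPM, though its Igf1 was higher. Neutrophil markers (5 genes) summed to 137 to 619 TPM after radiotherapy and 256 to 1516 TPM in controls, and satellite cell markers (4 genes, of which 3 were under 1 TPM in every library) to 6.24 to 11.9 TPM after radiotherapy and 9.47 to 19.3 TPM in controls. No marker on these lists was at 0 in every library, and the part of these cells in the Igf1 result was not tested.

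The receptor genes did not follow the ligand. Igf1r, which encodes the IGF-1 receptor, was at 1.30, 0.83 and 1.97 TPM in radiotherapy 1, 2 and 3, against 0.96, 1.80 and 1.99 TPM in controls 1, 2 and 3. Insr, the insulin receptor gene, was at 6.14, 6.35 and 10.4 TPM in radiotherapy 1, 2 and 3, against 5.24, 8.19 and 9.63 TPM in controls 1, 2 and 3. Both genes were high in radiotherapy 3 and control 3, and the groups overlapped over most of their range. The log2 fold change was -0.13 for Igf1r (SE 0.26, 95% interval -0.71 to 0.45, limma adjusted p = 0.984) and -0.01 for Insr (SE 0.30, interval -0.68 to 0.66, limma adjusted p = 0.999). Insr turned positive under other scalings, at 0.11 after median-of-ratios scaling and 0.13 after quantile normalization, and Igf1r did so without radiotherapy 2, at 0.04.

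The adaptor genes Irs1 and Irs2, which link both receptors to PI3K, were each highest in control 2. Irs1 was at 0.83, 0.43 and 1.15 TPM in radiotherapy 1, 2 and 3, against 1.12, 2.79 and 1.03 TPM in controls 1, 2 and 3. Irs2 was at 1.96, 1.93 and 2.69 TPM in radiotherapy 1, 2 and 3, against 1.78, 8.85 and 3.02 TPM in controls 1, 2 and 3. Outside control 2 the groups overlapped for both genes. The log2 fold change was -0.51 for Irs1 (SE 0.28, 95% interval -1.15 to 0.13) and -0.59 for Irs2 (SE 0.42, interval -1.54 to 0.35), each with a limma adjusted p of 0.977. Without control 2 these values were -0.22 for Irs1 and -0.07 for Irs2, so the lower radiotherapy means rest mostly on that library.

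Because Irs1 and Irs2 peaked in the same library, the 250 bases before their RefSeq transcription start sites (build GRCm38.p6) are shown with motifs found by a search on both strands. Capitals mark CACGTG, the E-box core bound by many basic helix-loop-helix factors, and TGTTTTG, a form of the insulin response element.
Irs1, chr1:82291440-82291689, minus strand: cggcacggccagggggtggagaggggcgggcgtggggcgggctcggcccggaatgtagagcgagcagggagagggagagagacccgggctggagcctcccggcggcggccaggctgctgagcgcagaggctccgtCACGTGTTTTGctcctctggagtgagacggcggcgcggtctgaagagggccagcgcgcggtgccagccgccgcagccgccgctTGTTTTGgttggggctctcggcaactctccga
Irs2, chr8:11008930-11009179, minus strand: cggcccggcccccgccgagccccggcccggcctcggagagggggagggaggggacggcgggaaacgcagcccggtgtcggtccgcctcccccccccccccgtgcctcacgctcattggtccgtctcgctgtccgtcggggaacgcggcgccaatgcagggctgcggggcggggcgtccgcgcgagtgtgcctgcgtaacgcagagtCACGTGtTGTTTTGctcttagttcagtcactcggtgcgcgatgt
In Irs1 the E-box begins 115 bases before the start site and overlaps a TGTTTTG, which begins 111 bases before it, and a second TGTTTTG begins 32 bases before it. In Irs2 the E-box begins 44 bases before the start site and is followed by TGTTTTG, beginning 37 bases before it. Of 32851 RefSeq promoter windows of the same length, 6.02% hold CACGTG and 5.56% hold TGTTTTG on either strand, and 0.295% hold both. TGTTTAC, a FoxO core searched for separately and held by 3.17% of windows, is in neither gene. Its absence does not mean that these windows lack other forms of FoxO site. Promoter entries matched 8 of the 10 members; of these, Akt1 alone held TGTTTAC, at 1 of its 2 start sites, and no member outside Irs1 and Irs2 held CACGTG or TGTTTTG. These matches are descriptions of sequence, and no binding was measured.

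The Akt genes were lowest in radiotherapy 2. Akt1, the widely expressed form tied to growth, was at 18.1, 13.6 and 37.3 TPM in radiotherapy 1, 2 and 3, against 20.3, 24.6 and 33.2 TPM in controls 1, 2 and 3. Akt2, the form on which insulin-stimulated glucose uptake in muscle mainly depends, was at 65.3, 42.5 and 88.4 TPM in radiotherapy 1, 2 and 3, against 70.0, 89.8 and 149 TPM in controls 1, 2 and 3. The highest Akt1 value was thus in a radiotherapy library and the highest Akt2 value in a control, and both genes overlapped between groups. Akt2 had the most negative fold change of the 10 genes, -0.64 (SE 0.36, 95% interval -1.44 to 0.17, limma adjusted p = 0.977), and Akt1 gave -0.27 (SE 0.37, interval -1.11 to 0.57, limma adjusted p = 0.979). Without radiotherapy 2, the library with the highest mitochondrial share, Akt2 gave -0.36 and Akt1 turned positive at 0.03; without control 3 Akt2 gave -0.33.

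Among the FoxO genes, Foxo4 was the most abundant and Foxo1, which fasting induces in mouse muscle, the least. Foxo1 was at 2.33, 4.49 and 5.91 TPM in radiotherapy 1, 2 and 3, against 3.11, 6.50 and 6.62 TPM in controls 1, 2 and 3. Foxo3, whose active form induces atrophy genes in mouse muscle, was at 5.69, 5.91 and 6.89 TPM in radiotherapy 1, 2 and 3, against 5.37, 8.01 and 10.4 TPM in controls 1, 2 and 3. Control 1 lay inside or below the radiotherapy range for both genes. Foxo4 was at 50.4, 28.0 and 51.9 TPM in radiotherapy 1, 2 and 3, against 50.4, 71.7 and 61.4 TPM in controls 1, 2 and 3. The groups met at control 1, which was at the level of radiotherapy 1, and radiotherapy 2 lay well below the rest. Log2 fold changes were -0.52 for Foxo4 (SE 0.30, 95% interval -1.19 to 0.15), -0.30 for Foxo1 (SE 0.35, interval -1.09 to 0.50) and -0.28 for Foxo3 (SE 0.27, interval -0.89 to 0.33), with limma adjusted p from 0.977 to 0.979. Foxo4 gave -0.24 without radiotherapy 2, Foxo1 gave -0.0025 without radiotherapy 1, and Foxo3 gave -0.08 without control 3.

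**Figure D2:**
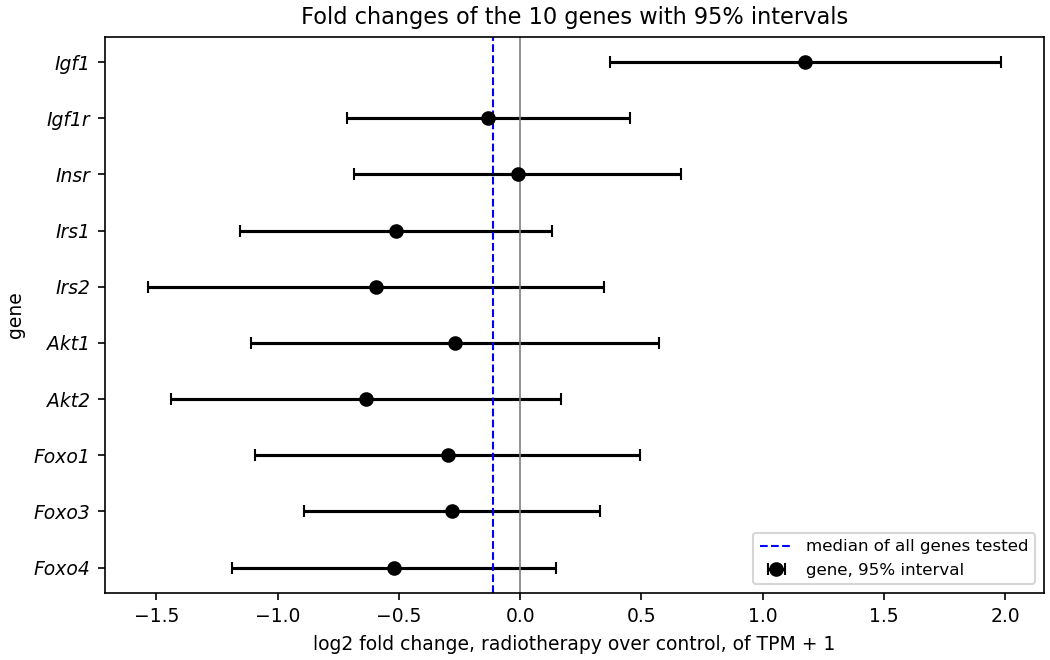
Log2 fold change of TPM + 1, radiotherapy over control, for each gene (horizontal axis) with its 95% limma interval; the dashed line is the median of all genes tested, -0.11. The interval of Igf1, 0.37 to 1.98, lies above 0, and the other 9 intervals include 0.

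High and low values of these genes often fell in the same libraries. The highest value was in control 3 for 4 members and in control 2 for 3, while the lowest was in radiotherapy 2 for 5 and in control 1 for 3. After median-of-ratios scaling the highest was in control 3 for 4 and in control 2 for 4. The lowest was then in radiotherapy 2 for 4 and in control 1 for 4. Such counts were not made over all genes tested. The members' median difference from their own means was -0.24, -0.41 and 0.23 on the log2 scale in radiotherapy 1, 2 and 3, and -0.24, 0.20 and 0.32 in controls 1, 2 and 3. The same measure over all genes tested was -0.09, -0.29 and 0.20 in radiotherapy 1, 2 and 3, and 0.04, 0.05 and 0.08 in controls 1, 2 and 3. Control 1 therefore sat with radiotherapy 1 for these genes although its overall level did not. It was also the library with the highest sums of macrophage and neutrophil markers, whose part was not tested. Without control 1, 3 members had an unadjusted limma p under 0.05: Igf1 at 1.52, Irs2 at -0.99 and Akt2 at -0.88, with adjusted p from 0.373 to 0.961; in that fit 5.07% of all genes tested had such a p, and the other alternatives gave 0 to 2 members. After median-of-ratios scaling 8 of the 10 members were negative, Insr having turned, and their median was -0.17.

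**Figure D3:**
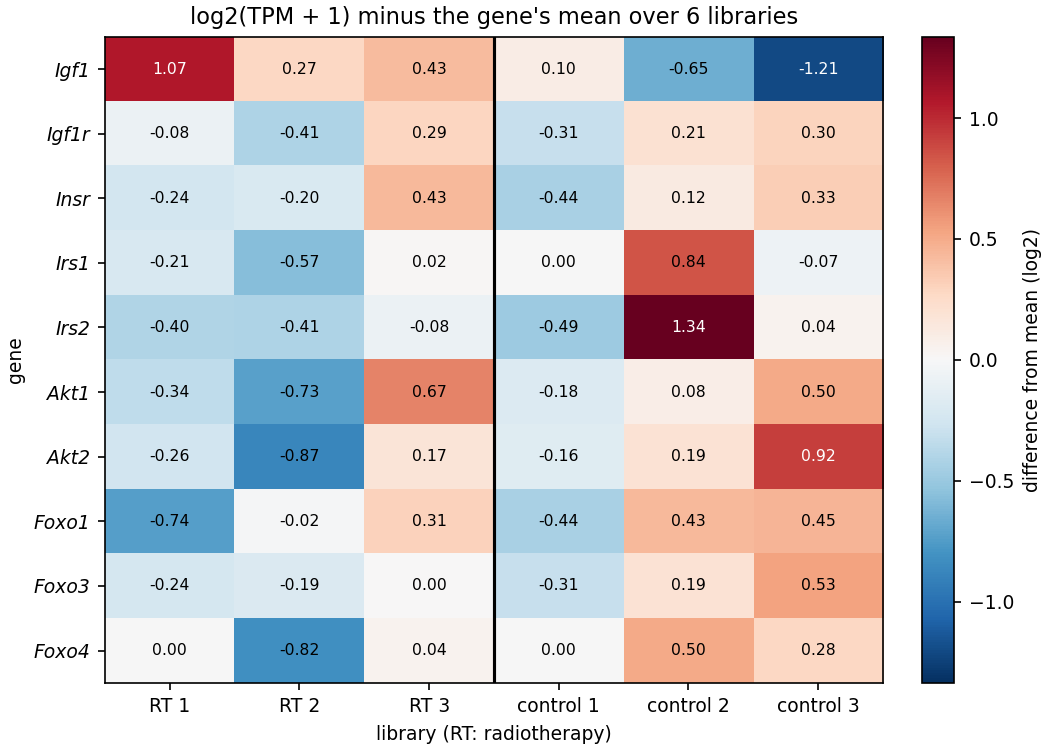
Each cell gives a gene's log2(TPM + 1) in a library (columns, RT for radiotherapy) minus that gene's mean over the 6 libraries; red is above the mean and blue below. Igf1 is above its mean in the 3 radiotherapy libraries and slightly in control 1 and is lowest in control 3, and the Irs rows peak in control 2.

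Shares of related genes within a library do not change when all its TPM values are multiplied by 1 common factor. Foxo1 took 8.27 ± 3.92% of the summed TPM of Foxo1, Foxo3 and Foxo4 after radiotherapy and 7.09 ± 1.63% in controls (SD, n = 3 each, two-sided exact permutation p = 0.7), and Foxo4 took 79.8 ± 6.68% after radiotherapy and 82.4 ± 3.71% in controls. Irs1 took 26.0 ± 6.71% of Irs1 and Irs2 together after radiotherapy and 29.3 ± 8.07% in controls (exact permutation p = 0.6). Igf1r took 15.0 ± 3.07% of the summed receptor transcripts after radiotherapy and 16.9 ± 1.29% in controls (exact permutation p = 0.5). Each of these tests had an adjusted p of 0.7 over the 4 shares computed, and 3 samples against 3 cannot give a p below 0.1. Foxo4 was the main FoxO transcript in each of the 6 libraries, and none of these shares differed beyond the spread between replicates.

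**Figure D4:**
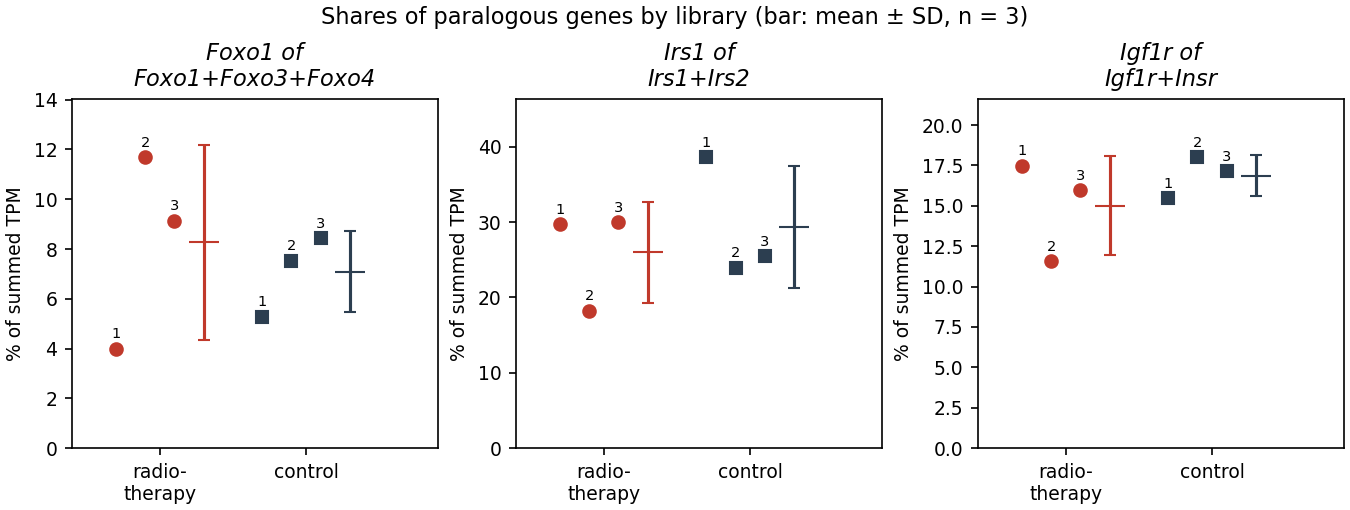
Percent of the summed TPM of related genes taken by the gene named first above each panel, for 3 radiotherapy libraries (red circles) and 3 control libraries (dark squares), with mean ± SD. The groups overlap in all 3 panels.

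The wider pathway was described with 7 lists holding 94 genes, of which 83 were tested. None passed limma in either direction (0 higher, 0 lower), and at an unadjusted p under 0.05 there were 1 higher (Pik3r1) and 3 lower (Mlst8, Mstn and Pdk4), against 0.967% and 2.86% of all genes. The median over the 83 genes was -0.19, beside -0.11 for all genes tested; without control 3 the order turned, to -0.08 beside -0.11, and without radiotherapy 2 the values were -0.07 and -0.0050. Pik3r1, which encodes the p85α regulatory subunit of PI3K, was the higher gene. It was at 12.9, 11.8 and 14.1 TPM in radiotherapy 1, 2 and 3, against 5.64, 6.16 and 8.69 TPM in controls 1, 2 and 3, with no overlap. Its log2 fold change was 0.85 (SE 0.24, 95% interval 0.29 to 1.40, limma adjusted p = 0.977), and leaving out single libraries gave from 0.74 to 1.01. Igf1 and Pik3r1 were the only 2 genes among the tested members and pathway lists with all radiotherapy values above all control values. Over all genes tested, 1.7% were so placed. Another 7 pathway genes had all radiotherapy values below all control values in unscaled TPM, against 7.54% of all genes. The catalytic subunit gene Pik3ca was negative at -0.40 (SE 0.28), and the regulatory subunit genes Pik3r2 and Pik3r3 gave -0.27 and -0.06. Over the 11 tested genes of PI3K and its phosphatases the median was -0.20; Phlpp1, a phosphatase of Akt, gave -0.33 (SE 0.21).

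IGF2 and the IGF-binding proteins, which carry IGFs and limit their access to the receptor, had a median of 0.11 over 7 tested genes of 10, with 5 positive. Igfbp4 was at 25.2 ± 9.27 TPM after radiotherapy and 18.6 ± 3.09 TPM in controls (log2 fold change 0.37, SE 0.29), and Igf2 at 11.2 ± 2.65 TPM after radiotherapy and 8.73 ± 1.93 TPM in controls (0.32, SE 0.27). Both were highest in radiotherapy 3, without which Igfbp4 gave 0.10 and Igf2 0.17. Igfbp5, the most negative of the list at -0.67 (SE 0.58), ranged from 2.99 to 24.9 TPM among controls alone. Adaptors and brakes on the receptors had a median of -0.11 over 11 tested genes of 15. In that list Gab1, a docking protein, gave -0.45 (SE 0.22). It was at 2.62 ± 0.27 TPM after radiotherapy and 3.98 ± 0.73 TPM in controls, with no overlap in unscaled TPM. That separation depends on the scaling, and after median-of-ratios scaling Gab1 gave -0.34. Grb2, a linker to Ras, gave -0.37 (SE 0.28), or -0.14 without radiotherapy 2 and -0.60 without radiotherapy 3. Socs2, a growth hormone response gene, gave -0.11 (SE 0.45).

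Downstream of Akt, 15 of 15 mTOR pathway genes were tested, with a median of -0.24. Mlst8, a subunit of both mTOR complexes, was at 2.83, 2.52 and 3.05 TPM in radiotherapy 1, 2 and 3, against 4.24, 5.08 and 5.14 TPM in controls 1, 2 and 3, without overlap (log2 fold change -0.61, SE 0.21, limma adjusted p = 0.977). Akt1s1, the Akt substrate PRAS40, gave -0.57 (SE 0.33), but -0.29 without radiotherapy 2 and -0.31 without control 3. The 8 genes of metabolic outputs had a median of -0.24. Slc2a4, the insulin-responsive glucose transporter GLUT4, was at 148 ± 16.1 TPM after radiotherapy and 190 ± 16.7 TPM in controls without overlap (-0.36, SE 0.21), and Tbc1d1, which restrains its movement to the cell surface, gave -0.64 (SE 0.30). Of 6 tested FoxO partners the median was 0.05; Sgk1, a kinase related to Akt that also phosphorylates FoxO, was at 74.6 ± 7.45 TPM after radiotherapy and 99.2 ± 5.22 TPM in controls without overlap (-0.41, SE 0.21), and the 14-3-3 gene Ywhab gave 0.16 (SE 0.26). None of these passed limma (adjusted p from 0.977 to 0.980). The absence of overlap in Slc2a4 and Sgk1 is of unscaled TPM and depends on the scaling. After median-of-ratios scaling Slc2a4 gave -0.22 and Sgk1 -0.27.

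All 25 listed FoxO targets were tested. Of these 18 were negative, beside 67.9% of all genes tested. Their median was -0.26, beside -0.11 for all genes tested. Pdk4, which shuts off pyruvate oxidation, was at 58.2, 199 and 166 TPM in radiotherapy 1, 2 and 3, against 197, 225 and 478 TPM in controls 1, 2 and 3, a log2 difference of -1.15 with an SE of 0.49 (adjusted p = 0.977 in limma). Its groups overlapped narrowly, and without radiotherapy 1, the lowest library, it gave -0.61; without control 3, the highest, it gave -0.76. Mstn, which encodes myostatin, a brake on muscle growth, was at 20.9, 7.62 and 19.1 TPM in radiotherapy 1, 2 and 3, against 25.7, 32.1 and 36.6 TPM in controls 1, 2 and 3, without overlap (-1.05, SE 0.37, limma adjusted p = 0.977); without radiotherapy 2 it gave -0.62. Of the 25 targets, 7 were highest in radiotherapy 3 and none in radiotherapy 1 or 2, against 1, 3 and 14 in controls 1, 2 and 3. This count was not made over all genes tested. The ubiquitin ligase genes Trim63 and Fbxo32, named here after their values were seen, were at 297 and 133 TPM in radiotherapy 1, their lowest library, and at 521 and 140 TPM in control 1, the next lowest. Foxo1 was likewise lowest in radiotherapy 1 and next lowest in control 1, while Foxo3 was lowest in control 1 and Foxo4 in radiotherapy 2. Radiotherapy 1, radiotherapy 2 and control 1 were each the lowest library for 6 of the 25 targets. A link between Foxo1 and these genes was not tested.

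**Figure D5:**
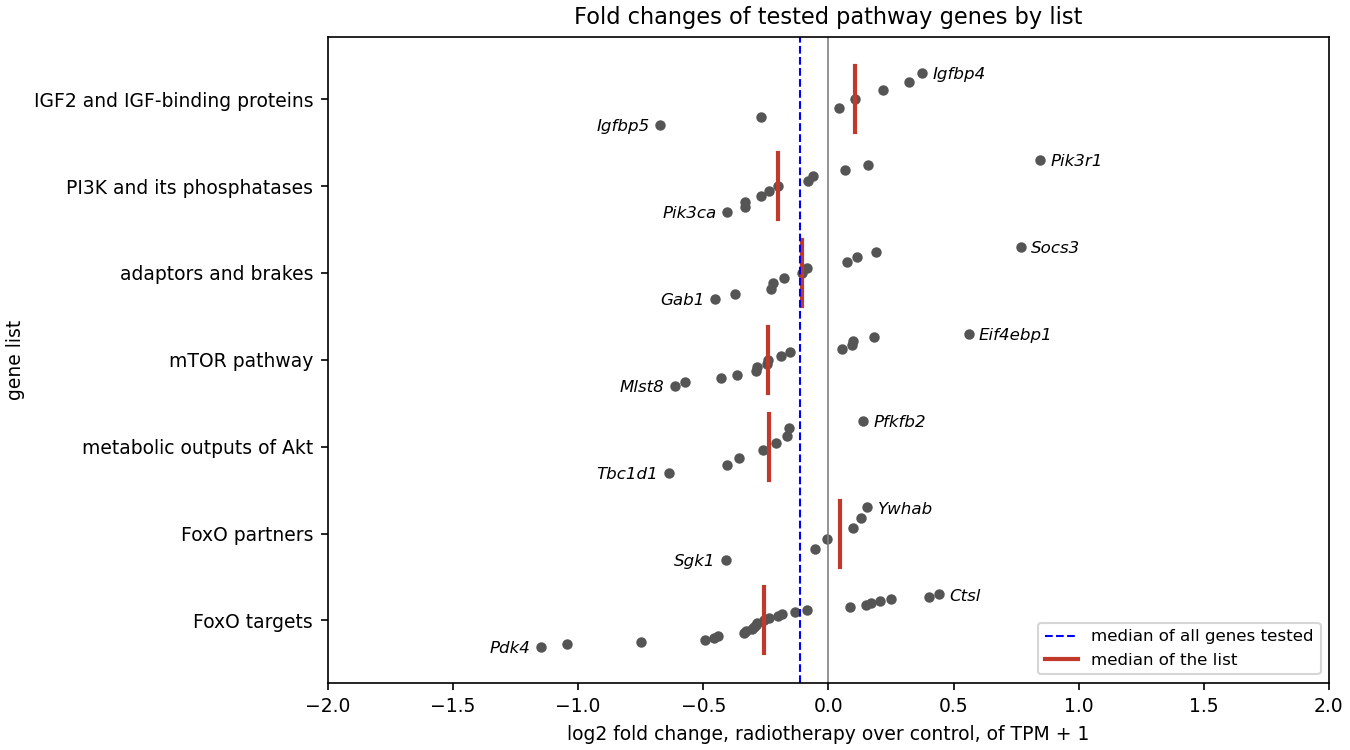
Log2 fold changes of TPM + 1, radiotherapy over control, of the 83 tested pathway genes (points) in 7 lists (rows), with each list's median (red bar), the median of all genes tested (dashed line, -0.11) and the most negative and most positive gene of each list named. Pik3r1 is the most positive at 0.85 and Pdk4 the most negative at -1.15.

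The genes most like each member over the 6 libraries were found among 6346 tested genes with a mean of at least 5 TPM, by the root mean square difference of centred log2(TPM + 1). The nearest to Igf1 were Mgst1, a microsomal glutathione transferase gene, at 0.24, and Myh7, the slow myosin heavy chain gene, at 0.31, beside 0.74 for the spread of Igf1 around its own mean. Akt2 was nearest to Smad4 (0.07) and Furin (0.08), against its own spread of 0.54, and Foxo4 to Ankrd28 (0.03) and Ccnk (0.05), against 0.41. Irs1 was nearest to Klf13 (0.09) and the clock-controlled gene Usp2 (0.10), against 0.42, and Irs2 to Coq10b (0.15) and Pxdc1 (0.29), against 0.63. The pairs for the others were Mef2a (0.05) and Numa1 (0.06) for Igf1r, Cipc (0.04) and Utp14a (0.06) for Insr, Zfp617 (0.06) and Polr3d (0.06) for Akt1, Fgfr1 (0.10) and Tgif1 (0.12) for Foxo1, and Kdm4b (0.05) and Pank4 (0.07) for Foxo3. With so many genes and 6 libraries, close matches arise for almost any gene, and the values are descriptions.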

How the data were processed

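Total RNA was sequenced from TruSeq libraries, per the labels' protocols. The deposited values are TPM, in a single table of 57010 Ensembl genes by 6 samples. HISAT2, StringTie and RSEM and the build mm9 are named, per the submitters' processing notes; those notes state neither version nor role of a tool, and annotation release, strand and filters are also unstated. The GENCODE M21 names hold 52029 of the identifiers, so no coordinates are printed except those of the Irs1 and Irs2 promoter windows. In that annotation Foxo1, Irs1 and Irs2 each share exon sequence with 1 gene on the opposite strand (Gm20402, Gm9747 and 9530052E02Rik), whose reads cannot be told apart without strand. Promoter windows came from RefSeq, build GRCm38.p6.

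Groups and replicate numbers came from the sample titles. The 11375 genes reaching 1 TPM in 3 or more samples were tested as log2(TPM + 1) with limma 3.58.1 in R 4.3.3 (mean-variance trend, two-sided, group as the only term) and Benjamini-Hochberg adjustment at 0.05 over all genes tested. The fit was tested on simulated data, and few of the smaller differences put in were called. A gene that was not called may therefore still differ between the groups. Shares were compared by exact permutation tests (SciPy 1.17.1). One of the 4 shares and 1 gene of the pathway lists are not reported here. Alternatives changed the pseudocount (0.1), the expression filter (none, or 5 TPM), the scaling (median of ratios, quantiles, or without mitochondrial genes and the top 50 by level) and the model (no trend, robust limma, a replicate block), or left out each sample. No library pair was identical (at most 4.16% of nonzero values equal).

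Members and lists were chosen with earlier results of these data known. Named genes were the 10 members, the 2 of smallest p in each pathway list, and the 2 nearest genes to each member; further genes are list extremes, related subunits or known regulators added after values were seen.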

Additional observations from a re-analysis of the deposited data

How the results depend on the processing

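No member and no pathway gene passed limma under any alternative run, and no gene passed except when 1 library was left out, where the count of genes past the threshold ranged from 0 to 1 (Gm24497 without radiotherapy 1, Gm55635 without control 1). With all libraries 435 genes had an unadjusted p under 0.05, and leaving out 1 library gave from 200, without radiotherapy 2, to 916, without radiotherapy 3. Igf1 stayed positive in each of the 14 alternatives that kept it, from 0.87 to 1.68 (limma adjusted p from 0.373 to 1.00). Under the filter of 5 TPM only 6 members could be fitted; Igf1, Igf1r, Irs1 and Irs2 were not among them. Insr became positive with median-of-ratios scaling (0.11), quantile normalization (0.13) and removal of abundant genes (0.10), and ranged from -0.23 to 0.15 when single libraries were left out. Igf1r ranged from -0.318 to 0.0406 and Akt1 from -0.668 to 0.0282 in those fits, each turning positive without radiotherapy 2. Ywhab ranged from -0.0349, without radiotherapy 3, to 0.318. Of the 353 alternative fold changes of named members and pathway genes, 10 changed sign. The other 343 kept their direction and their side of the threshold. Changes of filter or model leave a fold change as it was, so only scaling, pseudocount and left-out libraries could turn a sign. The causes were not tested.

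The difference in the Foxo1 share, 1.18 percentage points, ranged from -0.526 to 3.32 with single libraries left out, and that in the Irs1 share, -3.37 points, from -6.05 to 1.27. Quantile normalization, which applies no common factor, gave -5.70 points for the Irs1 share, and -2.81 in place of -1.88 points for the Igf1r share. The labels number the replicates alike in both groups but state no pairing. Deviations of same-numbered libraries correlated across 11375 genes at -0.06, 0.02 and -0.11 for replicates 1, 2 and 3. Differently numbered pairs ranged from -0.13 (radiotherapy 1, control 2) to 0.17 (radiotherapy 1, control 3). Whether same-numbered libraries were paired or shared a batch cannot be told from these values. With the number as a replicate block, 0 genes passed limma; Igf1 gave 1.18, with a limma p of 0.00327 before adjustment, and Akt2 gave -0.64, with a limma p of 0.0493 before adjustment. Without depth, the precision of the lowest values, such as Irs1 and Igf1r near 1 TPM and Igf1 at 0.58 TPM in control 3, is unknown.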
